A study of Mus musculus with 10 samples.

Results

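The MS4A family is a set of small membrane proteins that cross the membrane several times and sit, in most mammals, in one gene cluster. The 10 genes described here, Ms4a1, Ms4a4a, Ms4a4b, Ms4a4c, Ms4a6b, Ms4a6c, Ms4a6d, Ms4a7, Ms4a8a and Ms4a14, were taken by their symbols from a table of 27179 mouse genes, and all 10 were among the 15681 genes with enough reads to be tested. RNA-seq was made from freshly sorted cells of the mammary gland of adult virgin female C57BL/6 mice, with no transgene or treatment named in the labels. The 5 sorted populations were ductal macrophages, stromal macrophages, CD11b+ dendritic cells, CD11b- CD103+ dendritic cells (CD103+ below) and CD11b- CD103- dendritic cells (CD103- below), with 2 biological replicates each. The labels do not state if mice were pooled for a library.

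MS4A proteins lie in the plasma membrane and in inner membranes of blood cells, where they associate with other receptors and tune how those receptors signal. The best known member, Ms4a1, encodes CD20 of B cells, the target of therapeutic antibodies in human lymphoma. Several others are known from macrophages: mouse Ms4a4a protein associates with the fungal receptor dectin-1, and human variation near MS4A4A and MS4A6A is linked to the level of soluble TREM2.

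Library totals ranged from 5636092 to 23093742 counts, and levels are given as CPM (counts scaled to a common library size over the tested genes, with totals adjusted by the TMM method). The labels were checked with marker genes. C1qa, a complement gene of macrophages, had 4254 and 3952 CPM in ductal macrophages, 1874 and 1329 CPM in stromal macrophages, and at most 34.1 CPM in any dendritic cell library. Among other macrophage markers listed, Fcgr1, Mertk and Cd68 were likewise higher in all 4 macrophage libraries than in all 6 dendritic cell libraries, whereas Csf1r, Adgre1 and Cd14 were not. Csf1r, the receptor for macrophage growth factor, had 614 and 359 CPM in stromal macrophages and 551 and 566 CPM in CD11b+ dendritic cells, and Cd14, a receptor for bacterial lipopolysaccharide, had 894 and 763 CPM in stromal macrophages against 2998 and 2738 CPM in CD11b+ cells. The 8 macrophage markers summed to 16611 and 16562 CPM in ductal macrophages, 5359 and 3987 CPM in stromal macrophages, 4505 and 4177 CPM in CD11b+ dendritic cells, and 598 to 1825 CPM in the CD11b- populations. The 8 dendritic cell markers summed to more in ductal macrophages (1460 and 1012 CPM, of which 847 and 610 CPM were Itgax, which encodes CD11c) than in CD11b+ dendritic cells (563 and 365 CPM), with 204 and 242 CPM in stromal macrophages and 2411 to 3567 CPM in the CD11b- populations. The summed macrophage markers of stromal macrophages thus overlapped those of CD11b+ dendritic cells. Itgae, which encodes CD103, had 158 and 172 CPM in CD103+ cells against 9.39 and 3.8 CPM in CD103- cells. Itgam, which encodes CD11b, had 701 and 556 CPM in CD11b+ dendritic cells and at most 11.4 CPM in both CD11b- populations. The dendritic cell gene Flt3 was low in CD11b+ dendritic cells, at 16.8 and 18.1 CPM, against 314 to 520 CPM in the 4 libraries of the CD11b- populations. Mitochondrial genes took 24.8% and 23.1% of the counts in stromal macrophages and between 0.631% and 6.29% in the other 8 libraries. Replicate 2 of the CD103- cells stood apart from the rest in B cell genes, as given with Ms4a1.

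All 10 genes lie on chromosome 19 between 11067471 and 11604804 (GRCm38.p6, the RefSeq annotation), a stretch of 537 kb, with 5 genes on each strand. Their order along the chromosome is Ms4a8a, Ms4a1, Ms4a14, Ms4a7, Ms4a4a, Ms4a4c, Ms4a4b, Ms4a6c, Ms4a6b and Ms4a6d. Some neighbours are close copies: the coding sequences of Ms4a4b and Ms4a4c were identical at 91.7% of 678 aligned bases, and those of Ms4a6b and Ms4a6c at 85.4% of 642. Few stretches of one read length, 80 bases, were identical between members, at most 3.21% of those in Ms4a4c. Counts of Ms4a6c are less certain, since 47.3% of its 80-base stretches also lie in the long noncoding RNA gene BE692007, which overlaps it. That gene had 95 counts in replicate 2 of the CD103- cells and between 1 and 20 counts in the other 9 libraries. Ms4a1 is overlapped by the noncoding gene 4930526L06Rik, which had between 0 and 2 counts in each library.

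The promoter table of RefSeq (GRCm38.p6) held 8 of the 10 genes, and the 250 bases before the listed start site are shown for 6 of them, 5′ to 3′ on the strand of the gene. They pair the member with the largest level in ductal macrophages, Ms4a7, with the member that was nearly missing there, Ms4a8a, and they set out both pairs of close copies. Capitals mark matches, on either strand, to the letters AGGAAGT (a motif of ETS factors such as PU.1), TGCTGAC (a motif of MAF factors) or TGANTCA (AP-1), which were chosen after the promoters had been seen. No window below has overlapping matches. Ms4a7 had 2 promoters listed, and only the first was shown and searched for matches.
Ms4a7 (chr19:11336147-11336396, minus strand): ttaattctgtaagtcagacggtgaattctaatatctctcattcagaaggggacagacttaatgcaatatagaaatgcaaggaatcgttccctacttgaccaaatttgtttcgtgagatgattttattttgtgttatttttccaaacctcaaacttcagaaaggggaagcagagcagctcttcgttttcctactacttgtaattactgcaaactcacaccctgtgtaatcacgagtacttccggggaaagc
Ms4a8a (chr19:11081104-11081353, minus strand): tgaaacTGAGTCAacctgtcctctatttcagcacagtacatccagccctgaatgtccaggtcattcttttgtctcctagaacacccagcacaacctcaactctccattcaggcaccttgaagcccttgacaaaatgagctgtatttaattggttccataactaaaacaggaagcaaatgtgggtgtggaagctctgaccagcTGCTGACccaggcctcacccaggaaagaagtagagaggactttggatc
Ms4a6b (chr19:11518309-11518558, plus strand): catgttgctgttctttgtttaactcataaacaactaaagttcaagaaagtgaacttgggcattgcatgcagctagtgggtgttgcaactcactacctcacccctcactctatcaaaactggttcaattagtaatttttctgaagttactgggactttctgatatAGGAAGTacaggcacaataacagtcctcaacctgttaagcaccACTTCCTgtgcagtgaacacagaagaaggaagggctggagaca
Ms4a6c (chr19:11469118-11469367, plus strand): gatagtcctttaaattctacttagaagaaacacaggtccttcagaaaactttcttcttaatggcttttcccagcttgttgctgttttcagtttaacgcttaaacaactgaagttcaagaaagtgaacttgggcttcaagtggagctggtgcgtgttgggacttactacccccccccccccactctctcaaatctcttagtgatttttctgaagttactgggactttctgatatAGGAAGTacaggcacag
Ms4a4b (chr19:11443308-11443557, plus strand): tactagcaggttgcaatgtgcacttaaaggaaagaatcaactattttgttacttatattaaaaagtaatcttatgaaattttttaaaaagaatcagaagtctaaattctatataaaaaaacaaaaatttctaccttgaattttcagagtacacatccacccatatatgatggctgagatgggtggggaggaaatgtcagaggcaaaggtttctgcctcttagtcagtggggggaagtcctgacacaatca
Ms4a4c (chr19:11407411-11407660, plus strand): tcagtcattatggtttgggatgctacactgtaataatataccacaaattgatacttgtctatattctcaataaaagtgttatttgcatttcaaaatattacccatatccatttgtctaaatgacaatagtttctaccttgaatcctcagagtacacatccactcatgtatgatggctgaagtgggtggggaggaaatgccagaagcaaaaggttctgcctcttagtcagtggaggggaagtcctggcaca

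Among all 32817 promoter windows of the table, AGGAAGT was present in 7.69%, TGCTGAC in 3.81% and TGANTCA in 6.75%. Of the 8 members with a window, AGGAAGT was in Ms4a6b, with matches starting 86 and 43 bases before the start site, and in Ms4a6c, 17 bases before it. TGCTGAC was in Ms4a8a, and TGANTCA was in Ms4a8a and Ms4a14. The interferon-stimulated element, present in 2.97% of all windows, was in none of the 8. The Ms4a6b and Ms4a6c windows aligned over 172 bases, of which 86% were identical, and those of Ms4a4b and Ms4a4c over 132 bases, of which 88.6% were identical. These matches describe the letters in the windows and are no evidence of binding.

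Ms4a7, Ms4a4a, Ms4a14 and the 3 Ms4a6 genes separated macrophages from dendritic cells more than they separated populations within either kind. Ms4a8a, Ms4a1, Ms4a4c and Ms4a4b did not. By a test of any difference among the 5 populations (edgeR's quasi-likelihood test, Benjamini-Hochberg adjusted p under 0.05), 9 of 10 members were called, beside 50.4% of all genes tested. Ms4a4b was the member not called. Summed per gene length, as RPKM (CPM per kilobase of gene length), the 10 genes reached 2934 and 2793 RPKM in ductal macrophages, 1739 and 1058 RPKM in stromal macrophages, 172 and 177 RPKM in CD11b+ dendritic cells, 49.5 and 64.8 RPKM in CD103+ cells, and 58.4 and 140 RPKM in CD103- cells. Ductal macrophages were highest and the 3 dendritic cell populations lowest, with no overlap between any macrophage and any dendritic cell library. In bulk samples such as these, fewer cells with a transcript and less transcript per cell cannot be told apart.

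**Figure D1:**
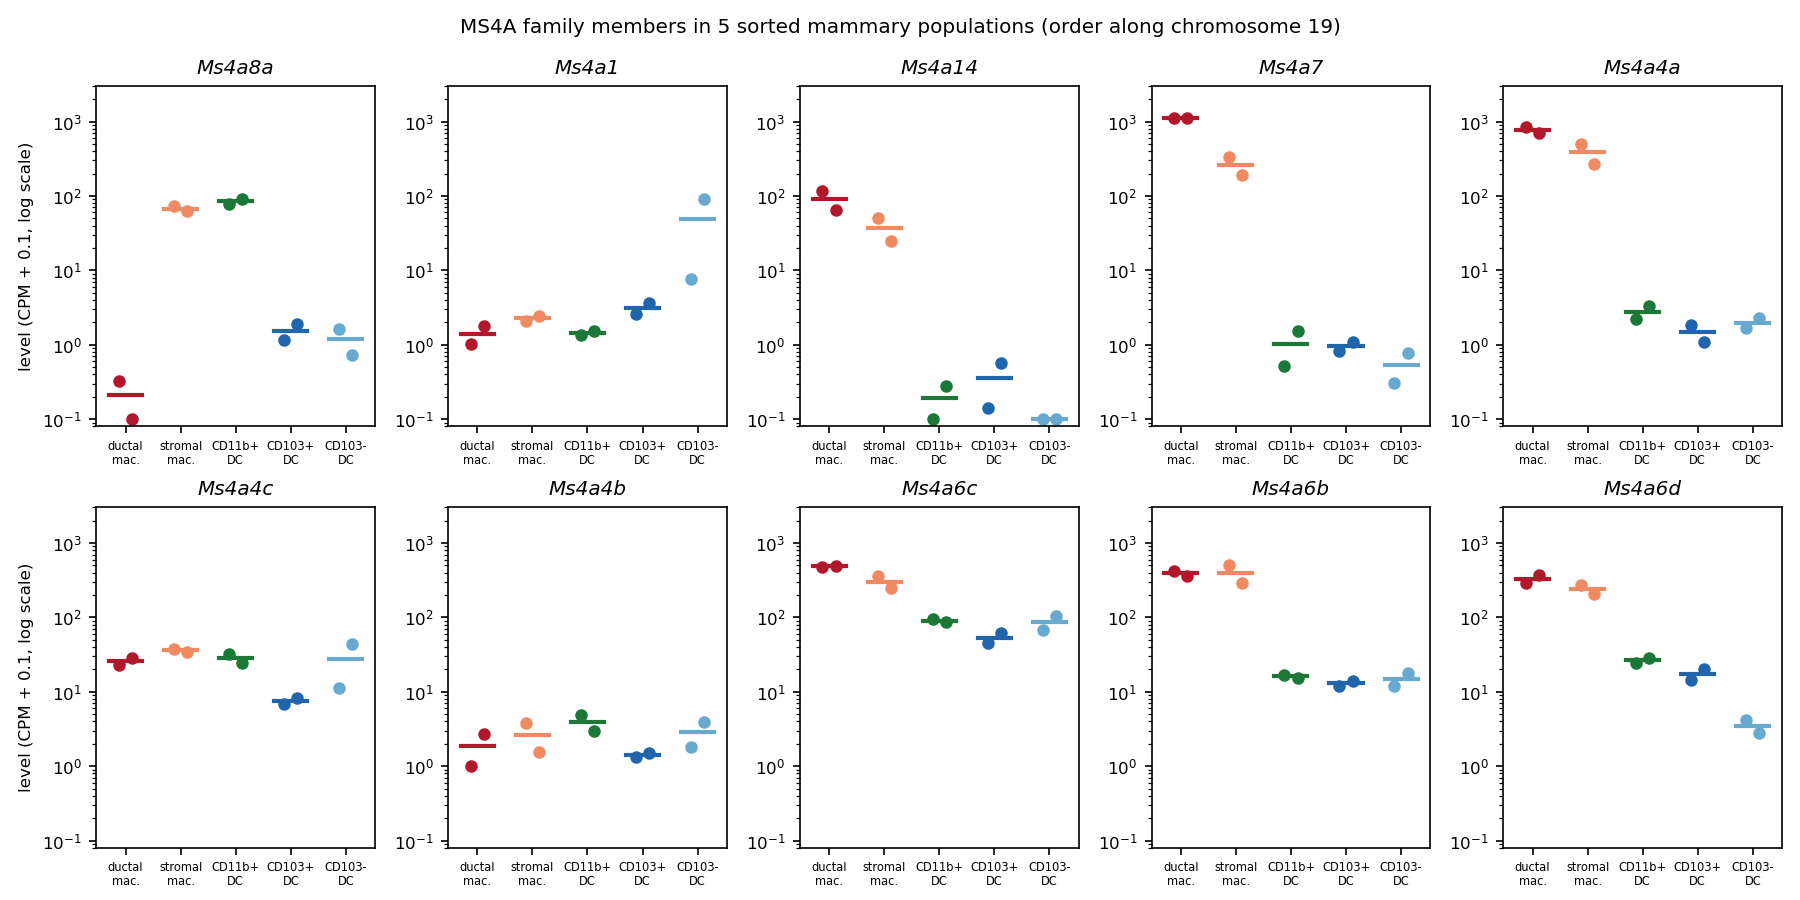
Level of each member (CPM + 0.1, log axis) in the 5 populations, with 1 point per library and a line at the mean of 2 libraries. Ms4a7, Ms4a4a and Ms4a14 are high in both macrophage populations and far lower in dendritic cells, Ms4a8a is high in stromal macrophages and CD11b+ dendritic cells, and Ms4a1 is high in 1 CD103- library.

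Ms4a7, Ms4a4a and Ms4a14 were the members most restricted to macrophages. Ms4a7 had 1110 and 1120 CPM in ductal macrophages, 335 and 191 CPM in stromal macrophages, 0.413 and 1.44 CPM in CD11b+ dendritic cells, 0.715 and 0.99 CPM in CD103+ cells, and 0.207 and 0.678 CPM in CD103- cells. Every ductal library was above every stromal library, and both were far above all 6 dendritic cell libraries, among which the CD11b+ libraries overlapped those of both CD11b- populations. The log2 fold change of ductal over stromal macrophages was 2.09 ± 0.40 (SE, n = 2 each; adjusted p = 0.00264, edgeR quasi-likelihood test), and it was between 10.34 and 11.16 over the 3 dendritic cell populations (adjusted p between 2.13e-06 and 3.83e-06). Stromal macrophages were above them by 8.25 to 9.08. These large values rest on few counts in dendritic cells (14, 43 and 18 over both libraries of CD11b+, CD103+ and CD103- cells), and they moved with single libraries. For ductal over CD11b+ cells, 10.53 became 9.59 and 11.36 without CD11b+ replicates 1 and 2, and for ductal over CD103- cells 11.16 became 12.33 without CD103- replicate 2. For stromal over CD11b+ cells, 8.44 became 7.51 and 9.28, and for stromal over CD103- cells 9.08 became 10.25, without the same libraries, and all stayed past the threshold.

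Ms4a4a, whose protein associates with dectin-1 in mouse macrophages, had 845 and 706 CPM in ductal macrophages, 505 and 271 CPM in stromal macrophages, and between 0.99 and 3.23 CPM in the 6 dendritic cell libraries. The ductal libraries were the highest and did not overlap the stromal ones. The log2 fold change was 1.00 ± 0.34 for ductal over stromal macrophages (adjusted p = 0.0462, edgeR quasi-likelihood test). That call was lost in 7 of the 10 fits that left out a library, with adjusted p of 0.211 and 0.092 without ductal replicates 1 and 2, 0.229 without stromal replicate 2, 0.0655 and 0.0619 without CD11b+ replicates 1 and 2, and 0.0533 and 0.0546 without CD103- replicates 1 and 2. Against the dendritic cell populations the values were 8.24 to 9.14 for ductal macrophages and 7.24 to 8.14 for stromal macrophages, all past the threshold. Without stromal replicate 1, stromal macrophages gave 7.52 in place of 8.14 over CD103+ cells and 7.07 in place of 7.67 over CD103- cells.

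Ms4a14 followed the same order at a lower level. It had 116 and 65.4 CPM in ductal macrophages, 49.7 and 24.7 CPM in stromal macrophages, 0 and 0.18 CPM in CD11b+ dendritic cells, 0.0397 and 0.475 CPM in CD103+ cells, and no count in either CD103- library. Set against a floor of 3 counts over both CD103- libraries, it was at least 1080-fold higher in ductal and at least 457-fold higher in stromal macrophages. With 1 count in CD11b+ dendritic cells, the ratio was 1781 for ductal macrophages (exact 95% interval 319 to 70434) and 754 for stromal macrophages (135 to 29812), where the intervals cover counting error only. Ductal and stromal libraries did not overlap, but the log2 fold change of 1.29 ± 0.55 missed the threshold (adjusted p = 0.102, edgeR quasi-likelihood test). It passed with no filter on low counts (adjusted p = 0.0243) and without stromal replicate 1 (adjusted p = 0.0473).

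The 3 Ms4a6 genes were high in both macrophage populations and, unlike Ms4a7, also present in dendritic cells. Ms4a6b had 425 and 357 CPM in ductal macrophages, 505 and 294 CPM in stromal macrophages, and 11.8 to 17.8 CPM in the 6 dendritic cell libraries. Both macrophage populations overlapped, as did the CD11b+ with the CD103- and the CD103+ with the CD103- cells. The log2 fold change of ductal over stromal macrophages was -0.03 ± 0.30 (adjusted p = 0.954, edgeR quasi-likelihood test), while both macrophage populations were above each dendritic cell population by 4.61 to 4.95.

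Ms4a6c had 480 and 492 CPM in ductal macrophages, 355 and 247 CPM in stromal macrophages, 94.6 and 86.7 CPM in CD11b+ dendritic cells, 45.1 and 61.5 CPM in CD103+ cells, and 68.4 and 104 CPM in CD103- cells. Ductal libraries were above stromal ones and both above all dendritic cell libraries, and the CD103- libraries overlapped those of CD11b+ cells. It was the member with the smallest gap between macrophages and dendritic cells among those that passed the test in all 6 such comparisons. Its log2 fold changes were 2.42, 3.19 and 2.50 for ductal macrophages over CD11b+, CD103+ and CD103- cells, and 1.73, 2.50 and 1.81 for stromal macrophages. CD11b+ dendritic cells were above CD103+ cells by 0.77 ± 0.28, which missed the threshold (adjusted p = 0.0811, edgeR quasi-likelihood test). That comparison passed in DESeq2 (adjusted p = 0.0379). The difference of ductal and stromal macrophages, 0.69 ± 0.28, missed the threshold (adjusted p = 0.0862, edgeR quasi-likelihood test), and passed in DESeq2 (adjusted p = 0.0349) and without stromal replicate 1 (adjusted p = 0.0448).

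Ms4a6d was the one Ms4a6 gene that was also called among dendritic cells in the main fit. It had 286 and 366 CPM in ductal macrophages, 274 and 205 CPM in stromal macrophages, 24.5 and 28 CPM in CD11b+ dendritic cells, 14.4 and 20.4 CPM in CD103+ cells, and 4.14 and 2.67 CPM in CD103- cells. The libraries of no 2 populations overlapped. CD11b+ dendritic cells were above CD103- cells by a log2 fold change of 2.96 ± 0.32 (adjusted p = 0.000148, edgeR quasi-likelihood test), and CD103+ cells were above CD103- cells by 2.37 ± 0.31 (adjusted p = 0.0376). In the comparison of CD103+ with CD103- cells only 0.0319% of all genes tested were called, 5 genes, and Ms4a6d was the 1 member among them. The direction was the same in every refit that left out a library, at 2.07 to 2.38 among those that lost the call, but the call was lost in 6 of those 10. Adjusted p was 0.0995 and 0.0959 without ductal replicates 1 and 2, 0.132 and 0.131 without CD11b+ replicates 1 and 2, 0.112 without CD103+ replicate 2, and 0.663 without CD103- replicate 2. Ductal and stromal macrophages differed by 0.45 ± 0.28 (adjusted p = 0.251).

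**Figure D2:**
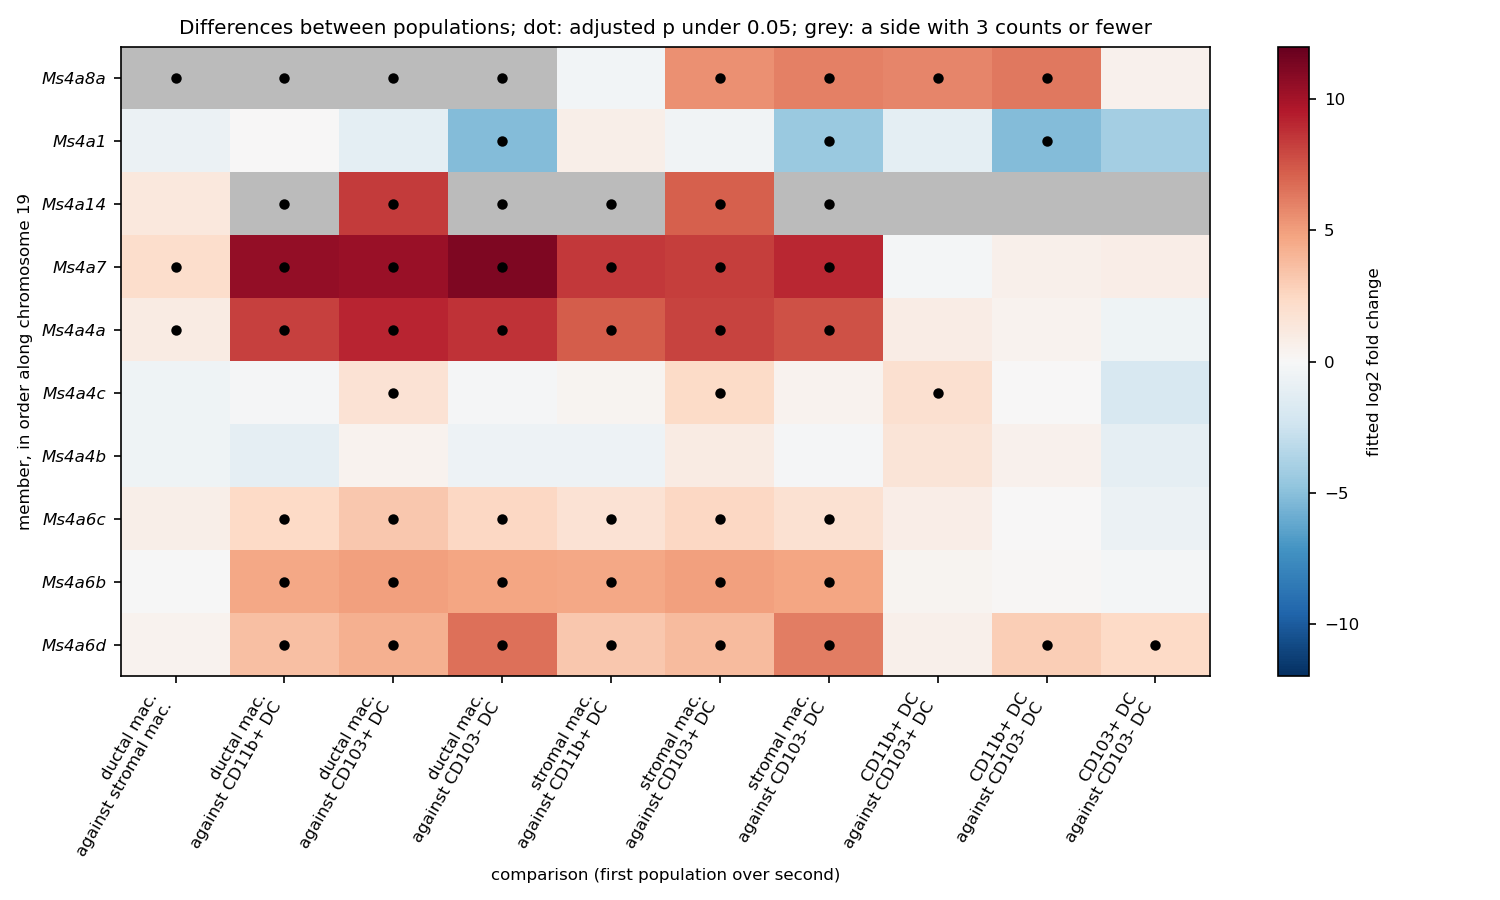
Fitted log2 fold change (colour) of each member, in order along the chromosome, in the 10 comparisons of populations, with a dot where the adjusted p was under 0.05. Grey squares have a side with 3 counts or fewer and carry no fitted fold. Ms4a14, Ms4a7, Ms4a4a and the 3 Ms4a6 genes are red in all comparisons of a macrophage with a dendritic cell population that have a fitted fold, and Ms4a8a departs from them.

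Ms4a8a, known in mouse from alternatively activated and tumour macrophages, was at or near 0 in ductal macrophages. It had 0.228 and 0 CPM in ductal macrophages, 1 count in all, against 72.1 and 62.4 CPM in stromal macrophages, 78.7 and 89.8 CPM in CD11b+ dendritic cells, 1.07 and 1.82 CPM in CD103+ cells, and 1.52 and 0.633 CPM in CD103- cells. Stromal macrophages and CD11b+ dendritic cells stood above all other libraries. The ratio of summed counts was 652 for stromal over ductal macrophages (exact 95% interval 117 to 25765) and 791 for CD11b+ dendritic cells over ductal macrophages (142 to 31281), with adjusted p of 8.37e-06 and 7.99e-06 (edgeR quasi-likelihood test). Stromal macrophages and CD11b+ dendritic cells differed by a log2 fold change of -0.32 ± 0.35 (adjusted p = 0.53), and each was 5.53 to 6.34 above the CD103+ and CD103- cells. Without CD103- replicate 1 the values over CD103- cells were 7.03 for CD11b+ dendritic cells and 6.71 for stromal macrophages, in place of 6.34 and 6.02.

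The same gene was also called lower in ductal macrophages than in the CD11b- populations, but on few counts. The ratio was 14 for CD103+ cells over ductal macrophages (exact 95% interval 2.44 to 561, adjusted p = 0.019, edgeR quasi-likelihood test) and 9.52 for CD103- cells over ductal macrophages (1.6 to 386, adjusted p = 0.0469). The CD103+ call was lost without ductal replicate 1 (adjusted p = 0.0519), ductal replicate 2 (0.146) and CD103+ replicate 2 (0.0651). The CD103- call was lost without ductal replicate 1 (0.0818), ductal replicate 2 (0.269), CD11b+ replicate 1 (0.0661), CD11b+ replicate 2 (0.0672) and CD103- replicate 1 (0.139), and in DESeq2 (0.0768). Markers of monocytes, 7 genes, moved in a like way: their summed level was 97.9 and 71.1 CPM in ductal macrophages, 6624 and 5115 CPM in stromal macrophages, 2327 and 1720 CPM in CD11b+ dendritic cells, and 308 to 802 CPM in CD11b- cells. Of these 7 genes, 2 were at 0 in ductal replicate 1. Their part in the Ms4a8a difference was not tested.

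Ms4a4c was spread over all populations at moderate levels. It had 22.6 and 28.8 CPM in ductal macrophages, 38 and 34.7 CPM in stromal macrophages, 31.8 and 24.2 CPM in CD11b+ dendritic cells, 6.83 and 8.08 CPM in CD103+ cells, and 11.1 and 43.9 CPM in CD103- cells. CD103+ cells were the lowest without overlap, while the 2 CD103- libraries spanned those of both macrophage populations and of CD11b+ cells. Over CD103+ cells, the log2 fold change was 1.78 ± 0.51 for ductal macrophages (adjusted p = 0.0269, edgeR quasi-likelihood test), 2.28 ± 0.51 for stromal macrophages (adjusted p = 0.00576) and 1.91 ± 0.50 for CD11b+ dendritic cells (adjusted p = 0.0215). Against CD103- cells, CD103+ cells gave -1.89 ± 0.50 for Ms4a4c, which missed the threshold (adjusted p = 0.345) and passed with no filter on low counts (0.0168), in DESeq2 (0.0358) and without CD103- replicate 1 (0.0168). Without CD103- replicate 2 it was -0.57.

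These Ms4a4c calls over CD103+ cells were lost in some fits that left out a library, while the folds moved little. In the fits that lost the call, the log2 fold change was 1.59 to 1.94 for ductal macrophages and 2.16 for stromal macrophages. For CD11b+ dendritic cells it was 1.69 to 2.1. The ductal call was lost without ductal replicate 1 (adjusted p = 0.0806, edgeR quasi-likelihood test), ductal replicate 2 (0.121), CD103+ replicate 1 (0.152) and CD103+ replicate 2 (0.0958), and the stromal call without CD103+ replicate 1 (0.0517). The CD11b+ call was lost without CD11b+ replicate 1 (0.13), CD11b+ replicate 2 (0.0668), CD103+ replicate 1 (0.144) and CD103+ replicate 2 (0.0859). Comparisons with CD103- cells turned on replicate 2 of that population. With it, the log2 fold change was -0.10 for ductal macrophages, 0.40 for stromal macrophages and 0.03 for CD11b+ dendritic cells, and none passed. Without it, the values were 1.21 (adjusted p = 0.0472), 1.71 (adjusted p = 0.00744) and 1.34 (adjusted p = 0.0385), so that for ductal macrophages the direction reversed and passed the test.

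Ms4a4b, known from mouse T cells, where its protein associates with the receptor GITR, was low in all populations. Its levels were 0.911 and 2.65 CPM in ductal macrophages, 3.7 and 1.44 CPM in stromal macrophages, 4.81 and 2.87 CPM in CD11b+ dendritic cells, 1.23 and 1.43 CPM in CD103+ cells, and 1.73 and 3.84 CPM in CD103- cells. Most populations overlapped, and the test of any difference gave an adjusted p of 0.393 (edgeR quasi-likelihood test). The 11 T cell markers summed to between 2.77 and 18.9 CPM in every library.

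Ms4a1, which encodes CD20, was low in all libraries but 1. It had 0.911 and 1.7 CPM in ductal macrophages, 1.99 and 2.37 CPM in stromal macrophages, 1.24 and 1.44 CPM in CD11b+ dendritic cells, 2.46 and 3.52 CPM in CD103+ cells, and 7.53 and 90.8 CPM in CD103- cells. Both CD103- libraries were the highest, and they differed from each other more than the remaining 8 libraries did. The log2 fold change against CD103- cells was -5.20 ± 1.02 for ductal macrophages (adjusted p = 0.0036, edgeR quasi-likelihood test), -4.50 ± 0.90 for stromal macrophages (adjusted p = 0.00317) and -5.22 ± 0.98 for CD11b+ dendritic cells (adjusted p = 0.00437). Against CD103- cells, CD103+ cells gave -4.04 ± 0.87, which missed the threshold (adjusted p = 0.21) and passed with no filter on low counts (0.000568), in DESeq2 (0.00025) and without CD103- replicate 1 (0.00297).

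Without CD103- replicate 2, the Ms4a1 values were -2.50 for ductal macrophages (adjusted p = 0.0407, edgeR quasi-likelihood test), -1.79 for stromal macrophages (0.0765) and -2.50 for CD11b+ dendritic cells (0.0445). The ductal call was also lost without ductal replicate 1 (0.0529), and the CD11b+ call without CD11b+ replicates 1 (0.062) and 2 (0.0531). Of the 9 B cell markers drawn in the plot of B cell genes, 6 were highest in the same library, and Fcrla, Ighm and Ebf1 were not. Fcrla was highest in CD103+ replicate 2 (112 CPM, beside 66.9 CPM in CD103- replicate 2), and Ebf1 had 14.8 and 11 CPM in CD103- cells, below the 27.7 and 16.9 CPM of CD103+ cells. Cd79a, a chain of the B cell receptor, had 10.7 and 62.6 CPM in CD103- cells and at most 2.15 CPM in the other 8 libraries. Cr2, a complement receptor of B cells, had 5.25 and 20.3 CPM in CD103- cells and at most 0.556 CPM elsewhere. All 10 listed B cell markers had counts in both CD103- libraries, while between 1 and 6 of them were at 0 in each of the other 8. Pax5, a factor that defines B cells, had 0.829 and 1.27 CPM in CD103- cells and no count elsewhere. Summed, the 10 markers gave 404 and 779 CPM in CD103- cells, against 82.6 to 1043 CPM in the others, a sum set largely by Ighm. The part of B cells in the Ms4a1 result was not tested.

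**Figure D3:**
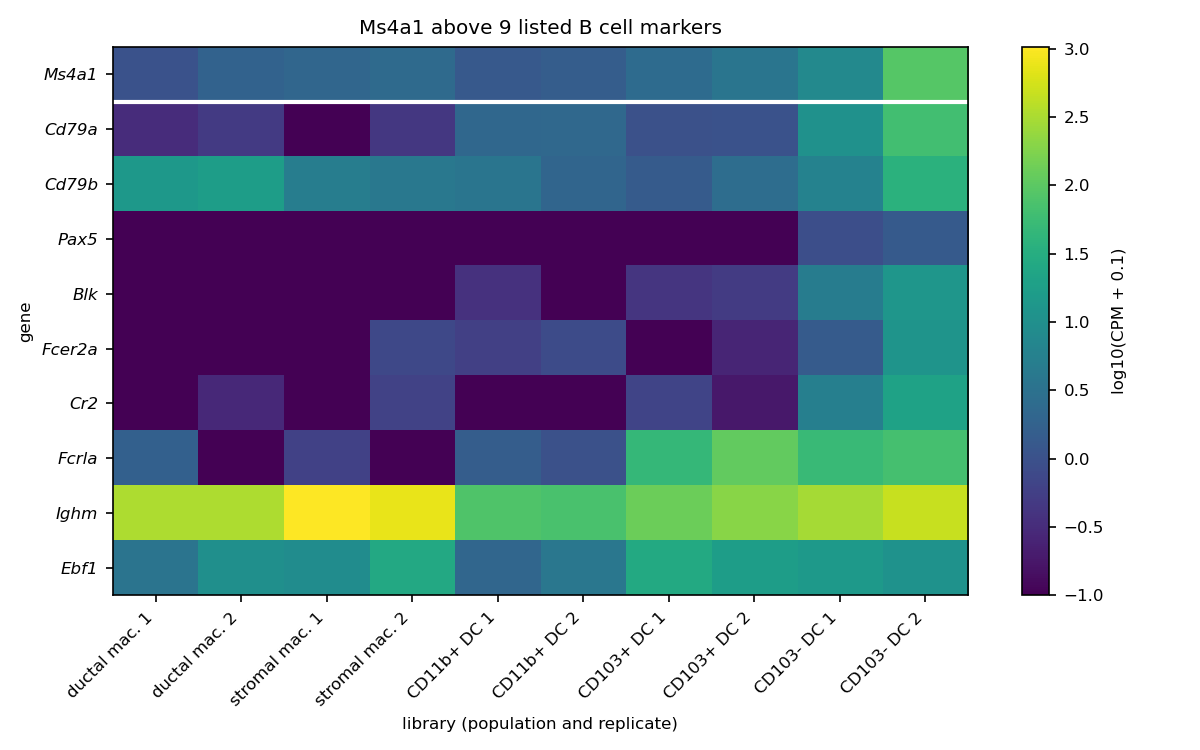
Ms4a1 and 9 of the 10 listed B cell markers (log10 of CPM + 0.1, colour) in the 10 libraries. Ms4a1, Cd79a and Cr2 are brightest in replicate 2 of the CD103- cells, and Pax5 has counts in the 2 CD103- libraries only.

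Counted over the family, ductal macrophages were higher than stromal macrophages in 2 members (Ms4a7 and Ms4a4a), beside 16.3% of all genes, and lower in 1 (Ms4a8a), beside 14.3%. In all 3 of 10 were called beside 30.6% of all genes, a share near the background. Without ductal replicate 1, 2 members and 2536 genes were called, in place of 3 and 4801. The median log2 fold change of the members was 0.21, beside -0.10 for all genes. The mitochondrial share of counts, given above, also separated both populations, and its part in these differences was not tested.

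Macrophages against dendritic cells gave more calls. Against CD11b+ dendritic cells, ductal macrophages were higher in 6 members and lower in 1, beside 11.9% and 11.4% of all genes (23.3% in either direction). Against CD103+ cells they were higher in 7 and lower in 1, beside 12.5% and 11.4% (23.9%), and against CD103- cells higher in 6 and lower in 2, beside 12.2% and 10.7% (22.9%). The higher members were Ms4a7, Ms4a4a, Ms4a14 and the 3 Ms4a6 genes in each case, with Ms4a4c against CD103+ cells in addition. Stromal macrophages were higher in 6 members and lower in 0 against CD11b+ dendritic cells, beside 11.6% and 14.5% of all genes (26.1%). They were higher in 8 and lower in 0 against CD103+ cells, beside 16% and 17.5% (33.6%), and higher in 7 and lower in 1 against CD103- cells, beside 17% and 18.4% (35.3%). The members' median log2 fold change was 3.03, 3.71 and 3.61 for ductal and 2.46, 4.37 and 5.38 for stromal macrophages, against CD11b+, CD103+ and CD103- cells in that order, beside medians of all genes between -0.11 and 0.03. These comparisons share libraries and are not independent of each other. The shares of all genes moved with single libraries. Without ductal replicate 1, ductal macrophages differed in 1740, 1714 and 1914 genes from CD11b+, CD103+ and CD103- cells, in place of 3650, 3747 and 3597, while 7, 6 and 6 members were called. The count against CD11b+ cells also fell by over 1.5 times without ductal replicate 2 or either CD11b+ library, and that against CD103+ cells without either CD103+ library. For stromal macrophages it fell by that much without either CD11b+ library (to 2054 of 4097 genes at the lowest, with 6 members called) and without either CD103+ library (to 3244 of 5263, with 8 called). Against CD103- cells it stayed within 1.5 times.

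Among dendritic cells fewer genes were called over the whole table, and the members' counts are read beside those shares. CD11b+ dendritic cells were higher than CD103+ cells in 2 members (Ms4a8a and Ms4a4c) and lower in 0, beside 11.2% and 9.54% of all genes (20.8% in either direction), with a median of 0.68 beside -0.09. They were higher than CD103- cells in 2 members (Ms4a8a and Ms4a6d) and lower in 1 (Ms4a1), beside 9.62% and 7.93% of all genes (17.5%). The median was 0.45 beside -0.05, or 0.43 without Ms4a14, which had at most 1 count in both populations. CD103+ cells had a median of -0.34 against CD103- cells, beside -0.02. Leaving out any 1 of the 4 libraries compared lowered the count of genes by over 1.5 times in both comparisons of CD11b+ cells, to 1423 of 3257 against CD103+ cells and 1222 of 2752 against CD103- cells at the lowest, with 1 and 2 members called.

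The make-up of the family differed between populations when levels were compared per gene length. Ms4a7 made up 40.3% and 42.7% of the summed RPKM in ductal macrophages and 20.5% and 19.2% in stromal macrophages, while Ms4a4a made up 34.5% and 30.2% in ductal and 34.7% and 30.6% in stromal macrophages. In CD11b+ dendritic cells the largest share was that of Ms4a8a, at 42.2% and 46.8%. In the CD11b- populations it was that of Ms4a6c, at 44.5% and 46.3% in CD103+ cells and 57% and 36.2% in CD103- cells. Ms4a1 took 6.27% and 31.6% of the sum in CD103- cells, and Ms4a6d took 21.3% and 23% in CD103+ cells against 5.18% and 1.39% in CD103- cells.

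**Figure D4:**
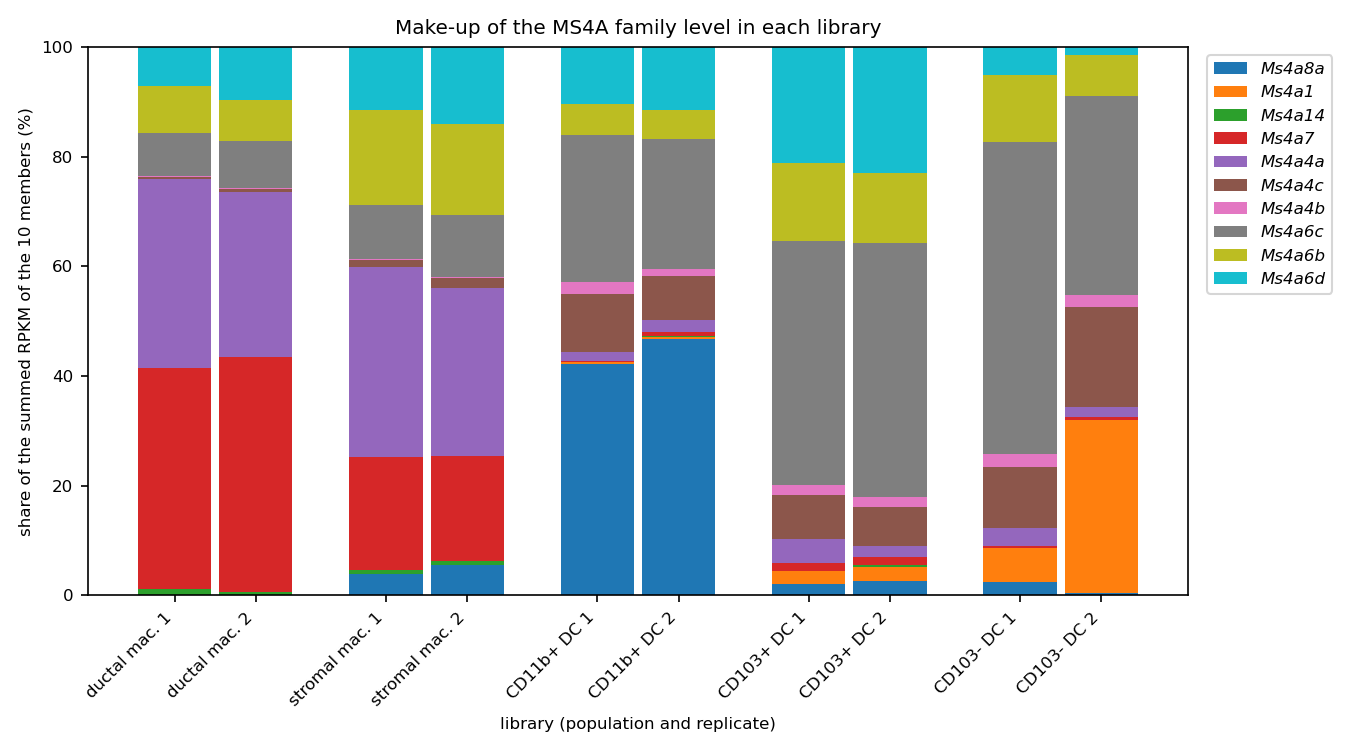
Share of each member in the summed RPKM of the 10 members (%), with 1 bar per library. Ms4a7 and Ms4a4a fill most of the ductal macrophage bars, Ms4a8a is the largest part in CD11b+ dendritic cells, and Ms4a6c is the largest in the CD103+ and CD103- libraries.

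Over the 10 libraries, Ms4a4a, Ms4a6b, Ms4a6c, Ms4a6d, Ms4a7 and Ms4a14 varied together, with Pearson's r of log2 CPM between 0.854 (Ms4a6c with Ms4a6d) and 0.992 (Ms4a4a with Ms4a6b). Ms4a8a, at one end of the same cluster, had r between -0.155 and 0.08 with these 6. The points share populations and libraries, so r is given as a description. Outside the family, the gene most like Ms4a7 was Slc40a1, the iron exporter ferroportin (r = 0.995), which had 114 CPM in ductal macrophages, 61.3 CPM in stromal macrophages and at most 0.586 CPM in dendritic cell means. Slc40a1 was also the closest gene to Ms4a14 (r = 0.991) and, level with Hpgd, to Ms4a6b (r = 0.987). Apoe, an apolipoprotein, was among the 3 closest to Ms4a7 (r = 0.984) and Ms4a14 (r = 0.982), and Msr1, a scavenger receptor, among the 3 closest to Ms4a4a (r = 0.985). Closest to Ms4a8a were Slc25a37, a mitochondrial iron importer, and Gas7 (r = 0.975 each), and closest to Ms4a1 was Gpn1 (r = 0.893). Gpn1 was nearly flat, with means from 36.6 CPM in ductal macrophages to 48.9 CPM in CD103- cells. Ms4a1 went from 1.31 to 49.2 CPM between the same populations.

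Of 13 further genes listed for the family, Ms4a4d, Tmem176a and Tmem176b had enough reads to be tested. Tmem176b, a distant relative found in inner membranes of dendritic cells and macrophages, had 1646 and 1606 CPM in ductal macrophages, 785 and 509 CPM in stromal macrophages, 950 and 916 CPM in CD11b+ dendritic cells, 155 and 193 CPM in CD103+ cells, and 90.9 and 57.1 CPM in CD103- cells. Tmem176a had 1397 and 1280 CPM in ductal macrophages against 253 and 169 CPM in stromal macrophages, a log2 fold change of 2.67 ± 0.34 (adjusted p = 0.000203, edgeR quasi-likelihood test). In dendritic cells Tmem176a had 336 and 331 CPM in CD11b+ cells, 83.9 and 110 CPM in CD103+ cells, and 49.1 and 26.7 CPM in CD103- cells. Both Tmem176 genes were thus higher in CD11b+ than in CD11b- dendritic cells, and 2 of the 3 genes were called in each of those comparisons. The shares of all genes called were 20.8% against CD103+ cells and 17.5% against CD103- cells. Ms4a4d stayed between 1.04 and 7.5 CPM. Ms4a2, the beta chain of the high-affinity IgE receptor of mast cells, had 28 and 0 counts in stromal macrophages and none elsewhere, and the 7 mast cell and basophil markers summed to 170 and 66.7 CPM in stromal macrophages against 1.59 to 25.5 CPM in the other libraries.

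Of 8 proteins known to associate with MS4A proteins, 7 were tested. Clec7a, which encodes dectin-1, had 2031 and 1559 CPM in ductal macrophages, 267 and 89.8 CPM in stromal macrophages, 498 and 259 CPM in CD11b+ dendritic cells, 58.6 and 59.4 CPM in CD103+ cells, and 14.5 and 21.1 CPM in CD103- cells. Its log2 fold change of ductal over stromal macrophages was 3.33 ± 0.51 (adjusted p = 0.000664, edgeR quasi-likelihood test). Trem2, a lipid receptor, had 37.6 and 64.5 CPM in ductal macrophages, 70.1 and 50.1 CPM in stromal macrophages, and at most 0.688 CPM in dendritic cells, so both macrophage populations overlapped. Tnfrsf18, which encodes GITR, ran the other way, with 2.51 and 4.73 CPM in ductal macrophages, 3.15 and 0.75 CPM in stromal macrophages, and 19.7 to 35.2 CPM in the 6 dendritic cell libraries. In the comparison of ductal with stromal macrophages 3 of the 7 partners were higher and 0 lower, beside 16.3% and 14.3% of all genes, with a median of 0.90 beside -0.10 for all genes. Ductal macrophages were higher in 2 partners and lower in 1 against CD11b+ dendritic cells, beside 11.9% and 11.4% of all genes. They were higher in 5 and lower in 1 against CD103+ cells, beside 12.5% and 11.4% of all genes. Against CD103- cells the counts were again 5 and 1, beside 12.2% and 10.7%. Stromal macrophages were higher in 1 partner and lower in 3 against CD11b+ dendritic cells, beside 11.6% and 14.5% of all genes, with a median of -0.93. They were higher in 5 and lower in 2 against CD103+ cells, beside 16% and 17.5% of all genes. Against CD103- cells they were higher in 4 and lower in 1, beside 17% and 18.4%. CD11b+ dendritic cells were higher in 4 partners and lower in 1 against CD103+ cells, beside 11.2% and 9.54% of all genes. Against CD103- cells they were higher in 4 and lower in 0, beside 9.62% and 7.93%. No partner was called in CD103+ against CD103- cells, where 0.0319% of all genes were.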

How the data were processed

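Raw gene counts deposited by the authors were used, made with featureCounts on build mm10 per the submitters' processing notes, from paired-end reads of 80 bases per the series' design text; the aligner, tool versions and strand setting are not given by those sources. RNA was taken from freshly sorted cells and the TruSeq RNA kit was used for the libraries, per the labels' protocols. The 10 single-library tables equalled the series table. Gene IDs were matched to RefSeq symbols for 25275 of 27179 genes.

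Counts of all 10 libraries entered 1 model with a term per population in edgeR 4.0.16 (R 4.3.3; filterByExpr with a minimum count of 10 and total of 15, TMM, quasi-likelihood F test), which left 15681 genes and 5 residual degrees of freedom; the common biological coefficient of variation was 0.333. All 10 pairs of populations and the test of any difference were adjusted by Benjamini-Hochberg over all genes tested, at 0.05. Standard errors were derived from the F statistic. CPM used the TMM-adjusted total of tested genes. Genes with 0 to 3 counts on a side got a ratio with an exact 95% interval or a bound from 3 counts. DESeq2 1.42.0, its size factors, no filter, a replicate block and leaving out each library were the alternatives. The fit was tested on simulated data. Alignments used Biopython 1.88.

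The members, gene lists and tests were chosen with earlier results of these data known. Named genes were the 10 members, family genes with at least 1 CPM in a population mean, the associated proteins as a list, and for each member reaching 10 CPM the 3 genes of highest r among those reaching 30 CPM; Ms4a2 was added after its values were seen. With 2 biological replicates per population, p-values rest on the spread between replicates in all 5 populations, also those not compared. The estimate of that spread also draws on the other genes. Values of some listed genes are not reported here.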

Additional observations from a re-analysis of the deposited data

How the results depend on the processing

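Of 100 log2 fold changes (10 members in 10 comparisons), 54 were called, and no called value changed direction under any of the alternatives. DESeq2's size factors kept all 54 calls, no filter kept 54 and gained 3, and DESeq2 kept 53 and gained 4. The replicate numbers did not pair the libraries in the same direction over all populations (correlations of replicate differences between -0.18 and 0.18, with 4 of 10 over 0.1). They were 0.102 to 0.126 among ductal macrophages, stromal macrophages and CD11b+ dendritic cells, and 0.177 between CD103+ and CD103- cells. Between these sets of populations they were -0.176 to -0.124. The source of this pattern was not tested. With the replicate number as a block 51 calls were kept, and those lost were Ms4a4a in ductal against stromal macrophages (adjusted p = 0.0502), Ms4a8a in ductal macrophages against CD103- cells (0.0655) and Ms4a6d in CD103+ against CD103- cells (0.124). Leaving out 1 library kept between 48 and 54 calls. DESeq2's size factors shifted the median of all genes by at most 0.06 on the log2 scale.

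The count of members called in CD103+ against CD103- cells was 1; it was 3 with no filter, 3 in DESeq2, 0 with the replicate block and 0 to 3 when a library was left out, and the count of all genes was 5, 150, 149 and 3, with 2 to 18 when a library was left out. Leaving out a library gave 2 to 5 members in ductal against stromal macrophages (3 with all libraries) and 1 to 2 in CD11b+ against CD103+ cells (2 with all). The other counts of members stayed within 1.5 times.

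Among the 46 values not called, 30 changes of direction were found over 17 values, and 1 of them passed the threshold: Ms4a4c in ductal macrophages against CD103- cells, at 1.21 without CD103- replicate 2. For Ms4a6b in ductal against stromal macrophages (-0.03), DESeq2 and its size factors both gave 0.01 and leaving out a library gave -0.37 to 0.44. For Ms4a1 in ductal macrophages against CD11b+ cells (0.01), DESeq2 gave -0.02, the replicate block -0.22 and leaving out a library -0.53 to 0.37. The other ranges come from leaving out a library. Ms4a4b ranged from -1.49 to 0.36 in ductal against stromal macrophages, -0.54 to 0.99 in ductal macrophages against CD103+ cells, -1.62 to 0.06 in ductal macrophages against CD103- cells and -1.03 to 0.57 in stromal macrophages against CD103- cells. Ms4a4c ranged from -0.32 to 0.08 in ductal macrophages against CD11b+ cells, -0.78 to 1.21 in ductal macrophages, -0.28 to 1.71 in stromal macrophages and -0.65 to 1.34 in CD11b+ cells, each against CD103- cells. CD11b+ against CD103+ cells ranged from -1.03 to 0.74 for Ms4a7 and -5.11 to 0.30 for Ms4a14. CD11b+ against CD103- cells ranged from -0.19 to 1.81 for Ms4a7, -0.16 to 0.43 for Ms4a6b and -0.20 to 0.41 for Ms4a6c. CD103+ against CD103- cells ranged from -0.47 to 0.12 for Ms4a6b and -0.07 to 1.18 for Ms4a8a. The cause was not tested. With 2 libraries per population, small differences are not detectable at this depth, and a level under 3 counts, 0.119 to 0.683 CPM by library, cannot be told from 0.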
